A study of Drosophila melanogaster with 9 samples.

Results

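The genes described here are the ecdysone receptor of *Drosophila* and the genes of its early response. They are 10 of the 13937 genes in the table and were chosen by name: *EcR*, *usp*, *Eip75B*, *Eip74EF*, *Eip78C*, *br*, *ftz-f1*, *Hr39*, *E23* and *crol*. Their transcripts were counted by RNA-Seq in S2 cells, an established *Drosophila* cell line of embryonic, macrophage-like origin. All cells were first held overnight, about 16 h, in medium without serum. The control cells (labelled Mock) then received solvent, the DILP2 cells 100 nM of *Drosophila* insulin-like peptide 2, and the DILP5 cells 100 nM of *Drosophila* insulin-like peptide 5, each for 1 h. No library was given ecdysone, and every library comes from the same line at 1 dose and 1 time. Each group has 3 libraries, A, B and C. The labels do not say that they come from separate cultures, so the p-values measure only the spread between these libraries, which may be technical.

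Ecdysone is the steroid hormone that times molting and metamorphosis in insects, and its active form, 20-hydroxyecdysone, binds the receptor EcR. EcR works as a pair with Usp, the insect counterpart of the retinoid X receptor, and the pair sits on DNA next to its target genes. The bound receptor switches on a small set of early genes, most of which encode transcription factors that in turn control later genes. Of the 10 genes, 6 encode nuclear receptors, namely EcR, Usp, Eip75B, Eip78C, Ftz-f1 and Hr39. The other proteins are the ETS factor Eip74EF, the BTB zinc finger factor Br, the zinc finger factor Crol and the membrane transporter E23. The question addressed by the comparisons was whether DILP2 and DILP5 change transcripts in the same way or differently.

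The libraries held from 28365854 to 38557706 counts on genes, and all 10 genes were among the 8981 that passed the filter on low counts. Levels are given as CPM (counts scaled to a common library total, with TMM factors), with means ± SD over 3 libraries. A gene was called changed at an adjusted p under 0.05 in the quasi-likelihood test of edgeR, adjusted by Benjamini-Hochberg over all 8981 genes, and standard errors (SE) of log2 fold changes come from that fit. The spread between replicates estimated across genes was 6.29%. Of 7 macrophage-like markers of S2 cells, 5 were present at 1 CPM or more, and *nimC1* and *Sr-CI* were near 0. Their summed level was 1243 to 1275 CPM in the controls, 1086 to 1110 CPM with DILP2 and 1091 to 1118 CPM with DILP5, so it was lower with the DILPs. Of the markers that reached 1 CPM, *srp* (log2 fold change -0.30 and -0.28) and *ush* (-0.27 and -0.25) were called lower with DILP2 and DILP5, whereas *crq* (-0.04 and -0.06), *Pxn* (-0.03 and -0.09) and *Hml* (-0.25 and -0.27) were not called. The part of *srp* and *ush* in the changes below was not tested. Summed markers of crystal cells and of fat body stayed under 0.5 CPM in every library, those of muscle and germline were at most 3.81 CPM, and the neuronal list was present through *elav* alone. In bulk RNA, fewer cells of a kind and less RNA per cell cannot be told apart. On the first principal component of all tested genes the controls scored from -16.85 to -8.53 and replicates A and B of both DILPs from 7.67 to 11.55. The C library scored -0.17 in the DILP2 group and -1.79 in the DILP5 group, between the controls and the other DILP libraries. The calls are therefore also given without those C libraries.

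Of the 10 genes, *EcR* and *Eip74EF* were called lower with both DILPs, *E23* with DILP2 and *ftz-f1* with DILP5, and none was called higher. Only the calls of *EcR* held with each library left out in turn, and none of the 10 was called between the DILPs. *EcR* fell by 19.5% with DILP2 and fell by 20.8% with DILP5, while *usp*, its partner, did not pass the test with either. *Eip74EF* fell by 21.5% with DILP2 and fell by 20.5% with DILP5. The 3 calls with DILP2 and the 3 with DILP5 covered 4 genes, of which *EcR* and *Eip74EF* were called with both, and 6 genes were called with neither. The edgeR quasi-likelihood test called 981 of all tested genes with DILP2 (10.9%), of which 479 were higher (5.33%) and 502 lower (5.59%). With DILP5 it called 1173 genes (13.1%), of which 564 were higher (6.28%) and 609 lower (6.78%). With 10 genes, the 3 calls in each comparison were not tested against these shares. The median log2 fold change of the 10 was -0.078 with DILP2 and -0.054 with DILP5, beside -0.002 for all tested genes in each comparison, and 8 of the 10 lay below 0 in each, as did 50.7% and 50.5% of all tested genes. Both comparisons use the same 3 control libraries, so the likeness of their values is not independent evidence.

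**Figure D1:**
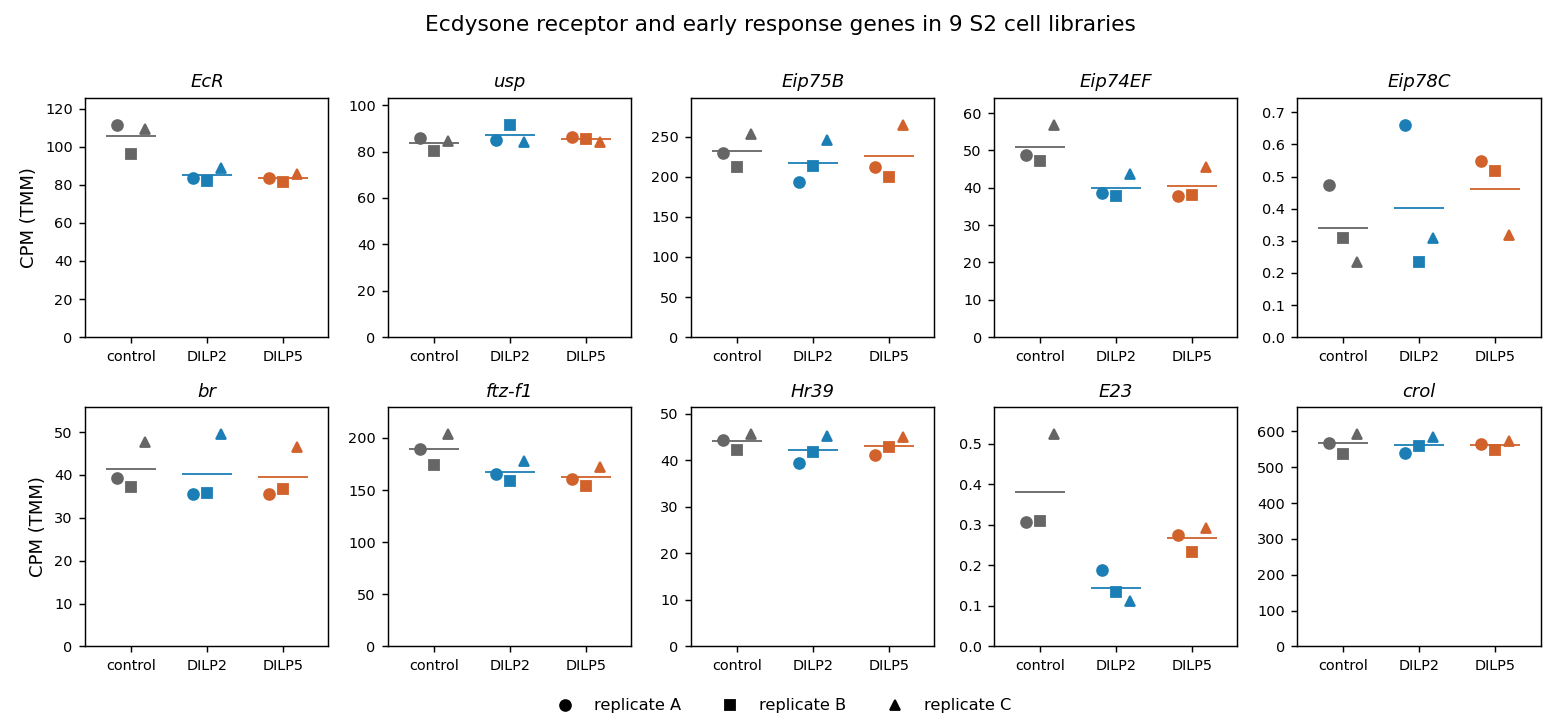
Level of each of the 10 genes in the 9 libraries, in CPM after TMM scaling on axes that start at 0, with circles, squares and triangles for replicates A, B and C and a line at the mean of each group. For EcR and Eip74EF every DILP library lies below every control library, whereas for usp, Eip75B, Eip78C, br, Hr39 and crol the groups overlap.

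*EcR* encodes the hormone-binding subunit of the receptor. Its level was 111.5, 96.0 and 109 CPM in control replicates A, B and C. It was 83.8, 82.1 and 89.0 CPM with DILP2 and 83.8, 81.3 and 85.8 CPM with DILP5. The lowest control, replicate B, thus stood above the highest DILP library, DILP2 replicate C, and the 2 DILP groups overlapped each other. The means were 105.6 ± 8.33 CPM for the control, 84.96 ± 3.63 CPM for DILP2 and 83.6 ± 2.25 CPM for DILP5. On the log2 scale *EcR* changed by -0.31 with DILP2 (SE 0.0575, adjusted p = 0.00592), and the change with DILP5 was -0.34 (SE 0.0573, adjusted p = 0.00318). *EcR* stayed called with both DILPs in all 20 alternative settings, including each library left out in turn, with log2 fold changes from -0.38 to -0.24 with DILP2 and from -0.40 to -0.24 with DILP5. The counts are per gene, so the receptor isoforms made from *EcR* are summed.

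The partner gene *usp* gave another picture. Its level was 85.6, 80.2 and 84.6 CPM in the controls, 85.1, 91.5 and 84.1 CPM with DILP2, and 86.2, 85.4 and 84.3 CPM with DILP5. These ranges overlap, and DILP2 replicate B is the highest of the 9. Relative to the control, the log2 fold change of *usp* was 0.06 (SE 0.0443, adjusted p = 0.461, 95% interval from -0.04 to 0.16) with DILP2 and 0.03 (SE 0.0442, adjusted p = 0.701, interval from -0.07 to 0.13) with DILP5. The intervals thus leave out a fall of the size measured for *EcR*. Of the exonic length of *usp*, 8.72% is shared with *Actn* on the same strand and 6.45% with *CG4313* on the other, so part of its counts could come from these neighbors.

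Since both subunits were counted in the same libraries, their ratio does not depend on scaling between libraries. The controls held 1.30, 1.20 and 1.29 *EcR* counts for each *usp* count. With DILP2 the ratio was 0.984, 0.897 and 1.06, and with DILP5 it was 0.972, 0.951 and 1.02. All 6 DILP libraries lay below the 3 controls, with means of 1.263 ± 0.0569 for the control, 0.98 ± 0.0811 for DILP2 and 0.98 ± 0.0339 for DILP5. The log2 ratio was lower by a difference of -0.37 with DILP2 and -0.37 with DILP5. A two-sided exact permutation test gave p = 0.1 for each, which is the smallest value that 3 libraries against 3 allow, so this design cannot reach 0.05. DILP5 and DILP2 differed by 0.004 on the log2 scale (exact permutation p = 1). *EcR* is the longer gene, with 9934 bp of exons against 3038 bp for *usp*, so per kb *EcR* was the lower of the pair in all 9 libraries.

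**Figure D2:**
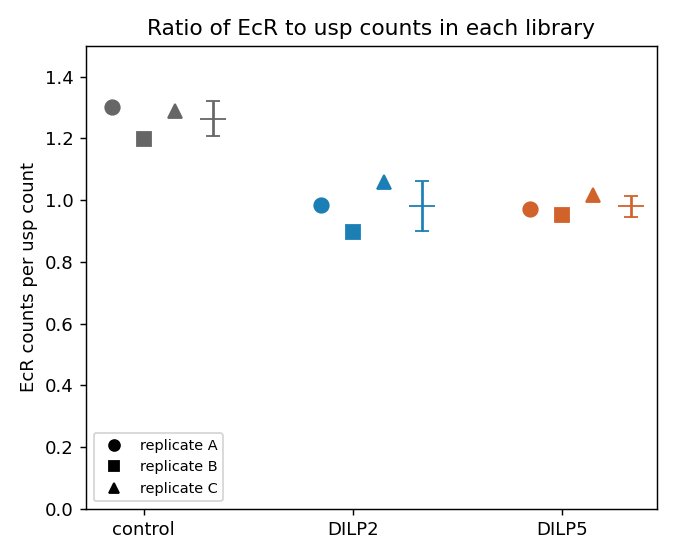
Number of EcR counts per usp count in each of the 9 libraries, with circles, squares and triangles for replicates A, B and C and, beside each group, the mean ± SD of 3 libraries. The 3 controls sit between 1.20 and 1.30 and the 6 DILP libraries between 0.897 and 1.06.

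The early genes that encode transcription factors came next. *Eip74EF* encodes an ETS domain factor and is one of the classic early puff genes of the salivary gland. Its level was 48.7, 47.1 and 56.9 CPM in the controls. With DILP2 it was 38.5, 37.7 and 43.7 CPM, and with DILP5 it was 37.9, 38.0 and 45.5 CPM. Replicate C was the highest of each group, and even so the C libraries of both DILPs stayed under the lowest control. The means were 50.88 ± 5.24, 39.95 ± 3.24 and 40.48 ± 4.38 CPM in the same order. This is a log2 fold change of -0.35 with DILP2 (SE 0.0911, adjusted p = 0.0319), and one of -0.33 with DILP5 (SE 0.0904, adjusted p = 0.0336). These calls lay close to the threshold. The call with DILP2 was lost without control replicate A (adjusted p = 0.0608), control replicate C (0.129), DILP2 replicate A (0.107) or DILP2 replicate B (0.108). That with DILP5 was lost without control replicate A (0.0612), control replicate C (0.134), DILP5 replicate A (0.121) or DILP5 replicate B (0.124). The smallest fall among these fits, -0.24 on the log2 scale, came with DILP5 without control replicate C.

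*Eip75B* encodes a heme-binding nuclear receptor and belongs to the same class of early puff genes. Its level was 229, 212 and 253 CPM in the controls, 193, 214 and 246 CPM with DILP2, and 212, 200 and 265 CPM with DILP5. The groups overlapped, and the C library was the highest in each. Its log2 fold change was -0.09 (SE 0.110, adjusted p = 0.667, interval from -0.33 to 0.15) with DILP2 and -0.04 (SE 0.109, adjusted p = 0.855, interval from -0.28 to 0.20) with DILP5. The interval with DILP2 still holds the fall seen for *EcR* with DILP2, that with DILP5 does not, and neither shows that *Eip75B* stayed level.

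*br* (the Broad-Complex) encodes BTB zinc finger factors that are needed to start metamorphosis. It was measured at 39.3, 37.2 and 47.8 CPM in the controls, 35.5, 35.8 and 49.6 CPM with DILP2, and 35.5, 36.8 and 46.5 CPM with DILP5. In each group replicates A and B were close together and replicate C stood 24.87%, 39.01% and 28.56% above their mean in the control, DILP2 and DILP5 groups. For *br*, the log2 fold change was -0.04 (SE 0.143, adjusted p = 0.910, interval from -0.35 to 0.27) with DILP2 and -0.07 (SE 0.142, adjusted p = 0.808, interval from -0.38 to 0.24) with DILP5. *br* overlaps *Mur2B* on the other strand by 0.94% of its exonic length.

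*Eip78C* encodes a nuclear receptor related to Eip75B and was close to absent. It had 17, 9 and 8 counts in the controls, 21, 7 and 11 with DILP2, and 20, 20 and 12 with DILP5. Summed over 3 libraries this is 34 counts in the control (95% Poisson interval 23.6 to 47.5), 39 with DILP2 (27.7 to 53.3) and 52 with DILP5 (38.8 to 68.2), where the intervals cover counting error only. Its log2 fold change was 0.23 (SE 0.443, adjusted p = 0.808) with DILP2 and 0.43 (SE 0.420, adjusted p = 0.552) with DILP5. A difference was not detectable at this depth.

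*ftz-f1* and *Hr39* encode related nuclear receptors that bind the same kind of DNA site. Ftz-f1 gives cells of the prepupa the competence to respond to the next hormone pulse. The level of *ftz-f1* was 189.6, 174 and 204 CPM in the controls, 166, 159 and 178 CPM with DILP2, and 161, 154 and 172 CPM with DILP5. All DILP5 libraries were below the lowest control, but DILP2 replicate C was above control replicate B. The means were 189.1 ± 14.8, 167.4 ± 9.67 and 162.1 ± 9.28 CPM. For *ftz-f1* the log2 fold change was -0.22 (SE 0.0647, adjusted p = 0.0429) with DILP5 and -0.18 (SE 0.0648, adjusted p = 0.111) with DILP2. *ftz-f1* was thus called with DILP5 and not with DILP2, but the difference between the DILPs was -0.05 (SE 0.0648, interval from -0.19 to 0.10, adjusted p = 1), so the responses are not shown to differ. The call with DILP5 was lost without control replicate A (adjusted p = 0.111), control replicate C (0.170), DILP2 replicate A (0.0553), DILP2 replicate B (0.051), DILP5 replicate A (0.113) or DILP5 replicate B (0.156). Without replicate C of both DILPs, *ftz-f1* was called with DILP2 as well (-0.22, adjusted p = 0.0271). That fit kept control replicate C, the highest control, which makes the fall larger. With replicate C left out of all groups, *ftz-f1* was not called with DILP2. Of its exonic length, 29.38% is shared with *lncRNA:CR45939* on the same strand, and counts of the pair could be mixed.

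The level of *Hr39* was 44.4, 42.3 and 45.7 CPM in the controls, 39.4, 41.9 and 45.2 CPM with DILP2, and 41.1, 42.9 and 45.0 CPM with DILP5. The ranges overlapped, and replicate C was again the highest in each group. Compared with the control, the log2 fold change was -0.07 (SE 0.0588, adjusted p = 0.548, interval from -0.19 to 0.06) with DILP2 and -0.04 (SE 0.0584, adjusted p = 0.730, interval from -0.17 to 0.09) with DILP5. Both intervals leave out the fall measured for *EcR*. Small RNAs, among them *mir-9374*, share 2.13% of its exonic length.

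*crol* encodes a zinc finger factor that takes part in the relay of ecdysone signals at the start of metamorphosis, and it was the most abundant of the 10. It reached 568, 538 and 593 CPM in the controls, 541, 559 and 586 CPM with DILP2, and 565, 549 and 573 CPM with DILP5. The groups overlapped almost fully. *crol* had a log2 fold change of -0.01 (SE 0.0471, interval from -0.12 to 0.09) with each DILP, at adjusted p = 0.922 with DILP2 and 0.907 with DILP5. With a standard error this small, the data leave out a fall of 20% in *crol* at the 95% level.

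*E23* encodes an ABC transporter of the membrane, known as an early gene that dampens the ecdysone response. It was rare, with 11, 9 and 18 counts in the controls, 6, 4 and 4 with DILP2, and 10, 9 and 11 with DILP5. As CPM this is 0.307, 0.309 and 0.524 in the controls, 0.189, 0.133 and 0.112 with DILP2, and 0.275, 0.234 and 0.292 with DILP5. In CPM the 3 groups did not overlap, with DILP2 lowest and the control highest. The raw counts of the control and DILP5 overlapped, so these groups were apart only after scaling. Summed counts were 38 in the control (95% Poisson interval 26.9 to 52.2), 14 with DILP2 (7.65 to 23.5) and 30 with DILP5 (20.2 to 42.8). The log2 fold change was -1.39 (SE 0.392, adjusted p = 0.0444) with DILP2, a fall of 61.8% with a wide interval from -2.25 to -0.53. With DILP5 it was -0.51 (SE 0.334, adjusted p = 0.356). *E23* lost its call with DILP2 in each of the 9 fits without 1 library, at adjusted p from 0.052 to 0.191 and log2 fold changes from -1.62 to -1.08. Without replicate C of both DILPs it was -1.22 (adjusted p = 0.121), so this call rests on few counts.

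**Figure D3:**
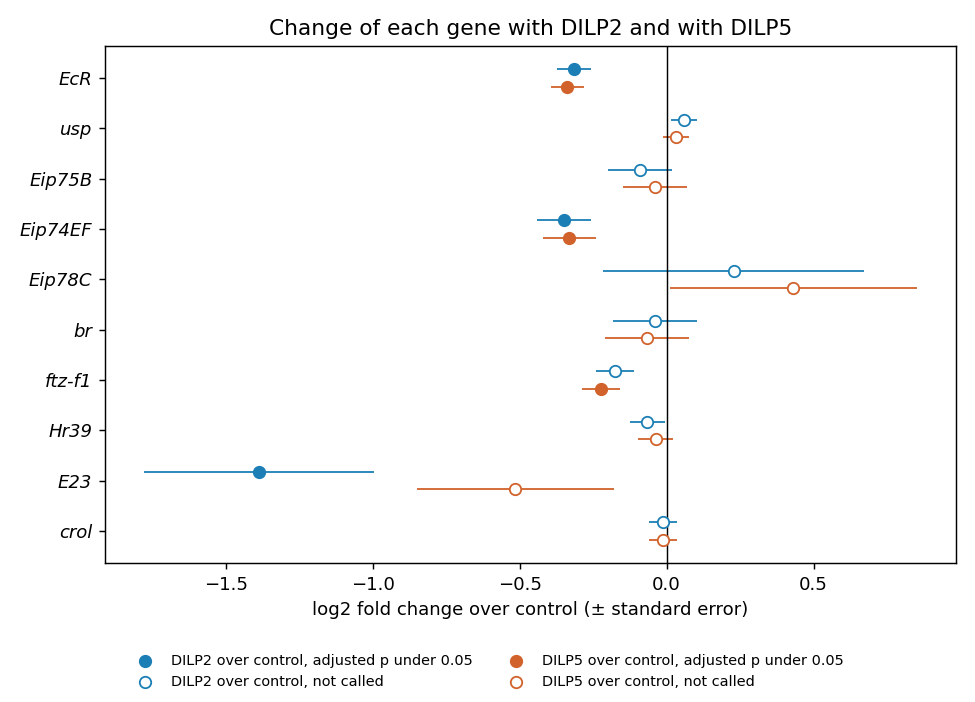
Log2 fold change of each of the 10 genes over control with DILP2 (blue) and with DILP5 (orange), with bars of 1 standard error, where filled points have an adjusted p under 0.05 in edgeR's quasi-likelihood test and open points do not. EcR and Eip74EF are filled for both DILPs between -0.35 and -0.31, and E23 and Eip78C, which have few counts, have the widest bars.

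DILP5 was then compared with DILP2 directly. The edgeR quasi-likelihood test called 0 of the 10 genes and 0 of all 8981 genes (0.00%), with a smallest adjusted p of 0.9998. DESeq2 and the exact test of edgeR also called 0 of the 10. At an unadjusted p under 0.05 in the quasi-likelihood test there were 208 of all 8981 genes and 0 of the 10. With so small a share among all genes, 0 of the 10 is not a result about these genes. *EcR* differed by -0.02 on the log2 scale (interval from -0.15 to 0.10) and *Eip74EF* by 0.02 (from -0.18 to 0.22), so for *EcR* a difference as large as its own fall lies outside the interval. For *usp* the difference was -0.03 (from -0.12 to 0.07), for *Hr39* 0.03 (from -0.10 to 0.16) and for *crol* 0.00 (from -0.10 to 0.10). The intervals were wider for *Eip75B*, at 0.05 (from -0.19 to 0.29), and for *br*, at -0.03 (from -0.34 to 0.29). *Eip78C* differed by 0.20 (from -0.69 to 1.10), an interval too wide to place it. *E23* had the largest difference of the 10, 0.87 (SE 0.412, from -0.03 to 1.78, unadjusted p = 0.0568 and adjusted p = 1). Its 3 DILP5 libraries lay above its 3 DILP2 libraries, but the fit does not show that the DILPs differ.

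Levels between genes can be compared only per length, so CPM was divided by the exonic length of each gene in kb. In the controls the order was *crol* (76.3 ± 3.69 CPM per kb), *usp* (27.5 ± 0.959), *ftz-f1* (22.0 ± 1.73), *Eip75B* (17.2 ± 1.53), *EcR* (10.6 ± 0.839), *Hr39* (8.85 ± 0.346), *Eip74EF* (5.45 ± 0.562), *br* (2.05 ± 0.277), *E23* (0.0738 ± 0.0242) and *Eip78C* (0.0576 ± 0.021). The 3 control libraries of neighbors in this order did not overlap, except for *E23* and *Eip78C*, which did. From *crol* to *br* the levels spanned 37.2-fold, and a 27.8-fold gap separated *br* from *E23*. Among all tested genes, the level per kb of *crol* stood at the 88.7th percentile, that of *usp* at the 67.5th and that of *EcR* at the 41.3rd, whereas *E23* (1.33) and *Eip78C* (0.844) were at the bottom. S2 cells in this state thus carried transcripts of both receptor subunits and of 6 early genes at 30 CPM or more, and almost none of *E23* and *Eip78C*. Lengths are the union of the exons of all isoforms, so the level of a gene with many isoforms, such as *br* with 20201 bp, is understated.

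The 10 genes share a feature that their choice did not use. Each has more exonic sequence (3038 to 20201 bp) than the median tested gene (2064.5 bp), with a median of 8001 bp. Across 8772 genes with a length, longer genes had lower fold changes, with a Spearman rho of -0.199 for DILP2 and -0.24 for DILP5, given as a description since genes are not independent and share these libraries. With this trend removed, *EcR* was at -0.24 for DILP2 (adjusted p = 0.00547) and at -0.24 for DILP5 (0.00391), and *Eip74EF* at -0.28 (0.0298) and -0.24 (0.0454). The call of *E23* with DILP2 held too (-1.33, adjusted p = 0.0467). *ftz-f1* lost its call with DILP5 (-0.14, adjusted p = 0.0931) and stood at -0.11 with DILP2 (0.201). The falls of *EcR*, *Eip74EF* and *ftz-f1* were thus smaller once length was taken into account.

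**Figure D4:**
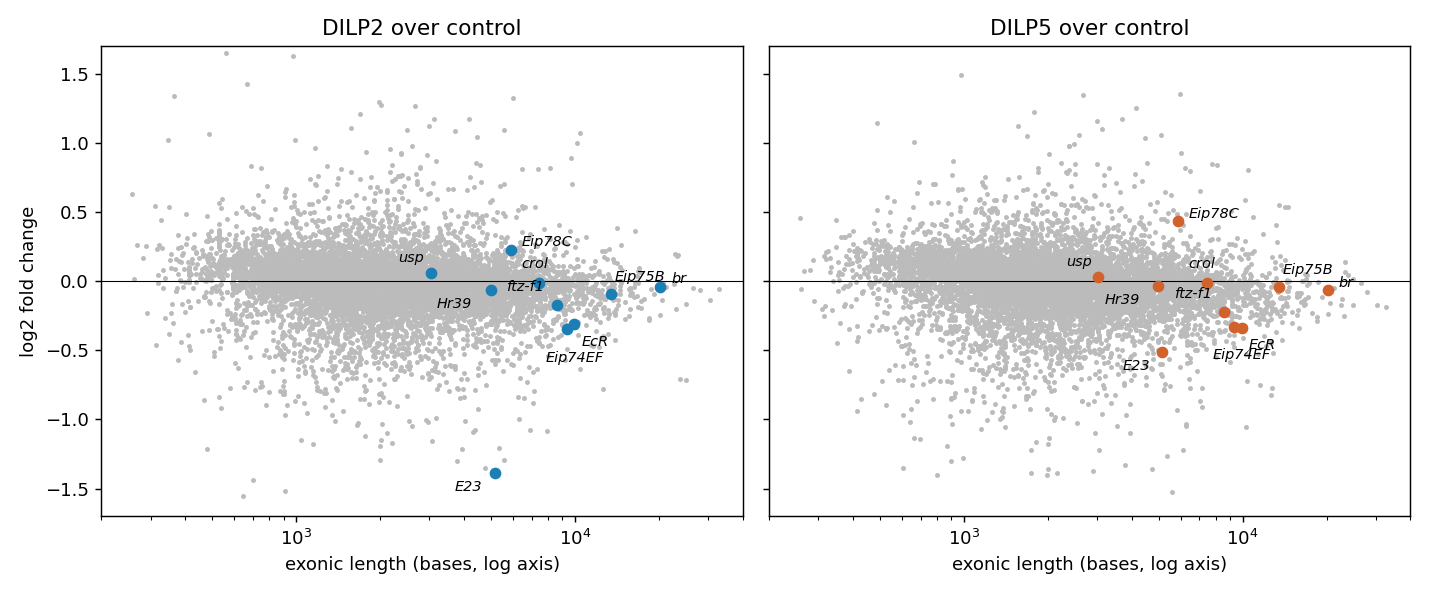
Log2 fold change with DILP2 (left) and DILP5 (right) against exonic length in bases on a log axis, for 8772 tested genes (grey) and the 10 genes of the ecdysone response (colored, named), with 2 genes on the left and 3 on the right beyond the axis at 1.7 in either direction. All 10 genes lie to the right of the median length of 2064.5 bp, and EcR, Eip74EF and ftz-f1 lie below 0 toward the long end on both sides. The longest of the 10, br and Eip75B, were called with neither DILP, at log2 fold changes of -0.04 and -0.07 for br and -0.09 and -0.04 for Eip75B.

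A second feature, found in most but not all of the 10 genes, was the height of replicate C. In 6 of the 10 genes (60%) the C library was the highest in each of the 3 groups, against 1316 of 8981 tested genes (14.7%). The 6 genes were *Eip75B*, *Eip74EF*, *br*, *ftz-f1*, *Hr39* and *crol*. Over the 3 groups, the excess of C over the mean of A and B was 24.87% to 39.01% for *br* and 14.73% to 28.62% for *Eip75B*. It was 14.61% to 19.98% for *Eip74EF* and 9.42% to 12.04% for *ftz-f1*. For *EcR* it was 3.92% to 7.37%. The labels do not say what the letters stand for. Without replicate C of both DILPs, *EcR* was at -0.35 (adjusted p = 0.00223) and -0.36 (0.0016) and *Eip74EF* at -0.42 (0.00229) and -0.42 (0.00168), with DILP2 and DILP5 in turn, and *ftz-f1* with DILP5 at -0.27 (0.00934). For these genes replicate C was the highest library of both DILP groups, and control replicate C was kept. Larger falls therefore follow from this choice and do not show that the calls are stable. Without replicate C of all groups, the log2 fold change of *EcR* was -0.32 for DILP2 (adjusted p = 0.00958) and -0.33 for DILP5 (0.00695), and that of *Eip74EF* was -0.33 (0.00373) and -0.33 (0.00279). *ftz-f1* was at -0.16 with DILP2 (0.092) and -0.21 with DILP5 (0.0308), while *E23* with DILP2 was at -0.91 and no longer called (0.341).

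Over the 9 libraries, the log2 CPM of *ftz-f1* and *Eip74EF* followed *EcR* most closely among the other 9 genes, with Pearson's r of 0.919 and 0.89. The values were 0.639 for *E23*, 0.554 for *Hr39*, 0.444 for *Eip75B*, 0.421 for *crol* and 0.389 for *br*, and they were negative for *Eip78C* (-0.274) and *usp* (-0.336). Among all 6180 tested genes of at least 10 CPM, the patterns most like *EcR* were those of *simj* (r = 0.993), *CG12054* (0.989), *ptc* (0.982), *crp* (0.977) and *CG1647* (0.977). All 5 were called lower with both DILPs, with log2 fold changes between -0.36 and -0.17. They were picked for likeness to *EcR* over these same libraries, and *EcR* was itself called lower with both DILPs. Their calls therefore largely follow from the choice and are not a separate result. *ptc* encodes the Hedgehog receptor. The libraries share depth and group differences, so these values describe likeness over 9 points only.

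Other genes of the pathway were read from 4 lists, of which 60 of 61 distinct genes were found in the table. The first held cofactors of the receptor and of its partner, with 10 genes listed, 9 found and 8 tested. All 8 had a log2 fold change below 0 with both DILPs, with medians of -0.161 for DILP2 and -0.095 for DILP5, beside -0.002 for all tested genes, of which 50.7% and 50.5% lay below 0. Some of the 8 lay close to 0, among them *rig* and *trr*. All 8 also have more exonic sequence (3058 to 11910 bp) than the median tested gene (2064.5 bp), and longer genes had lower fold changes. The part of length in these medians was not tested. In the reported edgeR fit 2 of the 8 were called lower with DILP2 (5.59% of all tested genes) and 3 with DILP5 (6.78%), and none was called higher. *CG11347*, the gene of the EcR coactivator DOR, was at 148, 141 and 163 CPM in the controls, 62.4, 65.5 and 75.1 CPM with DILP2 and 60.3, 59.0 and 74.8 CPM with DILP5. It fell by 1.15 on the log2 scale with DILP2 (SE 0.0953, adjusted p = 2.4e-05) and by 1.22 with DILP5 (SE 0.0951, adjusted p = 1.6e-05). The study names this gene from the same libraries, so it is not independent evidence for the list.

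*Utx*, a histone demethylase that acts with EcR, had 52.7, 50.9 and 48.2 CPM in the controls, 37.0, 40.1 and 34.8 CPM with DILP2 and 40.5, 40.1 and 34.5 CPM with DILP5. No DILP library reached the controls. *Utx* had a log2 fold change of -0.44 (SE 0.0715, adjusted p = 0.00281) with DILP2 and -0.40 (SE 0.0709, adjusted p = 0.00408) with DILP5. *CG11347* and *Utx* stayed called with both DILPs in the length correction and without each single library. *tai*, which encodes the p160 coactivator of EcR, fell from 275.5 ± 13.5 CPM to 238 ± 15.5 CPM with DILP5 (log2 fold change -0.21, SE 0.0597, adjusted p = 0.0391) and stood at 240.1 ± 14.7 CPM with DILP2 (-0.20, adjusted p = 0.0553). The call of *tai* with DILP5 was lost with the length trend removed and without control replicate A or C, DILP2 replicate B, or DILP5 replicate A or B. The other 5 genes tested were not called, among them *trr* (-0.03 and -0.01) and *rig* (-0.01 and -0.001).

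Among the other nuclear receptors, 15 were in the table and 9 were tested. In the reported edgeR fit, *Hnf4*, a receptor tied to lipid metabolism, was the 1 gene called. It fell from 94.3 ± 3.40 CPM to 82.4 ± 2.50 CPM with DILP2 (log2 fold change -0.20, SE 0.0451, adjusted p = 0.0185) and 82.4 ± 3.18 CPM with DILP5 (-0.19, SE 0.0449, adjusted p = 0.0161). Both calls were lost with the length trend removed and without control replicate A or C. The call of *Hnf4* with DILP2 also needed DILP2 replicate A and was lost without replicate C of all groups. That with DILP5 needed DILP5 replicate A. The median of the 9 was -0.195 with DILP2 and -0.068 with DILP5. The rare *dsf* (29, 19 and 18 counts in the controls, 9, 19 and 23 with DILP2, and 8, 13 and 15 with DILP5) was at -1.05 with DILP5 (SE 0.353, adjusted p = 0.0755), with all its DILP5 libraries below the controls, and was called in edgeR's exact test and without DILP2 replicate A. *Hr78*, which can bind the same sites as the EcR pair, was at 0.05 and 0.003.

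Of 23 other ecdysone-responsive genes in the table, 15 were tested. The reported fit called 3 of the 15 with each DILP, beside 10.9% of all tested genes with DILP2 and 13.1% with DILP5. The calls in the list were not tested against these shares. *ImpL2*, which encodes a secreted protein that binds DILPs, was the 1 gene of the list called higher with each DILP in the reported fit (log2 fold change 1.27, adjusted p = 9.7e-05, and 1.34, adjusted p = 5.9e-05). The study also names *ImpL2* from the same libraries, so it is not independent evidence for the list. *vri*, which encodes a bZIP factor of the circadian clock, fell from 11.5, 10.8 and 11.9 CPM in the controls to 4.25, 4.63 and 4.49 CPM with DILP2 and 4.48, 4.23 and 4.59 CPM with DILP5. This is a log2 fold change of -1.35 (SE 0.0882) and -1.36 (SE 0.087), the steepest fall among the genes of this list that were called. *Kr-h1*, a zinc finger factor known for its response to juvenile hormone, fell with DILP5 from 41.3 ± 3.51 to 34.9 ± 1.12 CPM (-0.24, adjusted p = 0.0267) and was at -0.19 with DILP2 (adjusted p = 0.0777). *Nc*, which encodes the initiator caspase Dronc, fell with DILP2 from 102.7 ± 2.45 to 94.1 ± 1.57 CPM (-0.13, adjusted p = 0.0481) and was at -0.05 with DILP5 (adjusted p = 0.448). *Kr-h1* was not called without control replicate A or C or DILP5 replicate A or B, and *Nc* was called in none of the 9 fits without 1 library. *ImpL3*, which encodes lactate dehydrogenase, was at 0.68 (SE 0.302) and 0.66 (SE 0.301) and not called (adjusted p = 0.184 for each), with control libraries from 53.6 to 133.5 CPM that overlapped those of both DILPs. Without replicate C of both DILPs, the calls in this list went from 3 to 6 with DILP2 and from 3 to 8 with DILP5. With DILP2, *Eip63E*, *ImpL3*, *Kr-h1* and *W* joined *ImpL2* and *vri*, and *Nc* lost its call. Calls among all tested genes also rose in that fit, from 981 to 1291 with DILP2 and from 1173 to 1583 with DILP5. The median of the 15 was -0.132 with DILP2 and -0.007 with DILP5.

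The list on the making, uptake and breakdown of ecdysteroids had 18 genes in the table and 12 tested, of which edgeR's quasi-likelihood test called 0 with either DILP. Several enzymes of ecdysone synthesis were at or near 0, among them *phm*, *dib* and *nvd*, while *Oatp74D*, the importer of ecdysone, was at 135 CPM in the control with log2 fold changes of 0.00 and -0.004. The medians were -0.05 and -0.033. In the direct comparison of DILP5 with DILP2, 0 genes of any of the 4 lists were called, as for the 10 genes themselves.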

How the data were processed

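RNA-Seq of 9 S2 cell libraries was read from 1 table of counts per gene. Reads from single ends were aligned to dm3 by the authors, who used Tophat with Bowtie, and the raw gene counts from easyRNASeq were deposited without normalization. The annotation release, strand handling and treatment of reads with several matches are not given in the sources used here. Counts of 9 libraries were fitted in 1 model without a block, with edgeR 4.0.16 in R 4.3.3 (default low-count filter with a minimum count of 10, TMM, quasi-likelihood F test, Benjamini-Hochberg, threshold 0.05). SE is the absolute log2 fold change over the square root of F, and intervals are at 95%. Alternatives were DESeq2 1.42.0, edgeR's exact test, DESeq2 size factors, library size only, no filter, each comparison's own libraries, the replicate block, removal of the length trend (loess, span 0.5), each library left out and replicate C left out. Leaving out replicate C of both DILPs was added after the data were seen.

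The genes and the lists were chosen with earlier results of these data known. The genes named are the 10, every list gene called in any comparison, the 5 genes most like *EcR*, and a few others chosen after their values were seen. Lengths, overlaps and symbols came from the BDGP6 annotation, which is not the authors' build, so no coordinates are given, and 97.5% of the identifiers matched. *br* was matched by symbol, DOR as *CG11347* by synonym, and *Smr* and *PPO1* were not matched. Sequences and promoters were not analysed here. Figures were drawn with matplotlib 3.10.9.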

Additional observations from a re-analysis of the deposited data

How the results depend on the processing

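Of the 6 calls on the 10 genes, made with DILP2 or DILP5 against control, the 119 values under the alternatives all had the same direction, 91 were called and 28 were not. The number of genes called went from 3 to between 1 and 2 with DILP2, and from 3 to between 1 and 3 with DILP5, when 1 library at a time was left out. Only *EcR* was called in each of these fits. *ftz-f1* with DILP2 was called in 4 alternatives, among them library size only (adjusted p = 0.0321). *E23* with DILP2 was not called without the filter (0.0782) or in its own 6 libraries (0.0709), and DESeq2 gave it no adjusted p. The causes were not tested. Of the genes called with neither DILP, *br*, *crol*, *Eip75B*, *Hr39*, *usp* and *Eip78C* changed sign in some alternatives and were called in none. DILP5 against DILP2 gave 0 calls among the 10 in every fit. The difference from control in the log2 *EcR* to *usp* ratio was also taken without 1 library at a time. It lay between -0.43 and -0.31 with DILP2 and between -0.40 and -0.34 with DILP5.

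Whether the letters pair the libraries is not given in the labels. Deviations from the group means correlated from -0.035 to 0.348 between libraries of the same letter and from -0.291 to 0.189 between others. The 3 pairs of C libraries gave 0.286 to 0.348, but pairs of B libraries gave as little as -0.035, so a pairing by letter is not shown for all libraries. With the replicate block, 4 of the 10 genes were called with DILP2, where *ftz-f1* joined at -0.17 (adjusted p = 0.00252), and 3 with DILP5. In the lists, the block called *tai* and *E(bx)* besides the 2 cofactors with DILP2 and *E(bx)* besides the 3 with DILP5, *dsf* with DILP5, and 7 instead of 3 other ecdysone-responsive genes with each DILP, *ImpL3* and *Eip55E* among them. All genes called then numbered 1781 with DILP2 and 2068 with DILP5, against 981 and 1173. Leaving out 1 library gave 487 to 1007 with DILP2 and 622 to 1270 with DILP5, and leaving out replicate C of both DILPs gave 1291 and 1583. Scaling to library size only moved the split to 307 higher and 778 lower with DILP2 and 366 and 852 with DILP5, and removal of the length trend moved it to 679 and 379, and 761 and 434. *E23* and *Eip78C*, at under 1 CPM, were limited by depth.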
